A study of Mus musculus with 9 samples.

Results

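NanogKO:Esrrb:Nanog cells, mouse embryonic stem cells in which Nanog was restored on top of added Esrrb, were compared with NanogKO:Esrrb cells, which carried the Esrrb addition alone. The comparison was chosen by sample label and used all 157497 counted regions of the genome, in 6 of the 9 libraries given, 3 a side. Both groups shared the Nanog knockout, the added Esrrb and 1 cell line name, N{delta}:cE:iN, and differed in a code in the titles (44J without and 44JN with Nanog) whose meaning the labels do not state. The labels do not give how Esrrb or Nanog was added, which part of Nanog was deleted, or whether each code is 1 clone. Cells of both groups had no other treatment, grew in medium with leukaemia inhibitory factor (LIF, 1000 U/ml) and 10% fetal bovine serum, and were sorted as positive for PECAM and negative for PDGFRA, a receptor found on primitive endoderm. "With Nanog" and "without Nanog" below stand for NanogKO:Esrrb:Nanog and NanogKO:Esrrb. The third group, NanogKO (44C6, with a cell line name of its own, N{delta}), entered the fit and is shown beside the results. The series design speaks of 12 samples, of which 9 were analysed here.

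Accessibility was measured by ATAC-seq, in which a transposase inserts sequencing adapters into open DNA, so that the number of reads in a region reflects how open it was. NANOG is a homeodomain transcription factor and ESRRB an orphan nuclear receptor that binds DNA in the absence of a known hormone. Both belong to the network of factors that maintains naive pluripotency, the state of the early epiblast that embryonic stem cells keep in culture, and Esrrb is a known target of NANOG. LIF sustains that state through its receptor and the transcription factor STAT3, and its targets include the pathway's own inhibitors of the SOCS family.

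The promoters of 4 genes of the LIF and STAT3 list are shown because their regions were more open with added Nanog, and because 5 of the list's 13 genes with a counted region at a promoter rose and 0 fell. Over all 14655 genes with such a region, 17.8% had a promoter that was higher and 4.26% one that was lower. They are the SOCS family inhibitors Socs3, Socs1 and Cish and the AP-1 subunit gene Junb. Each line gives the 250 bases before an annotated start of the gene, 5′ to 3′ on the gene's strand, from RefSeq (GRCm38.p6, the assembly of mm10). For Socs1, Cish and Junb that start is the end of the gene's span. For Socs3 it lies inside the span (chr11:117966079-117970336), so the stretch printed, with its STAT match, is within the gene. Capitals mark a match to the STAT motif TTCNNNGAA in Socs3 and to the TEAD motif GGAATG, on the opposite strand, in Cish. The motifs of ESRRB, the octamer, SOX, KLF, AP-1 and GATA factors, spelled out with the promoter results, had 0 matches in these 4 stretches on either strand.
Socs3 (chr11:117969367-117969616, minus strand): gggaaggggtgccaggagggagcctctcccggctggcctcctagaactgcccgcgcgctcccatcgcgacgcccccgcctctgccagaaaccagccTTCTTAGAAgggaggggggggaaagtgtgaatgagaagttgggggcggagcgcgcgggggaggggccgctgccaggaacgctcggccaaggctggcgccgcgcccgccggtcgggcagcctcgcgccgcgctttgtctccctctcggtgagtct
Socs1 (chr16:10785537-10785786, minus strand): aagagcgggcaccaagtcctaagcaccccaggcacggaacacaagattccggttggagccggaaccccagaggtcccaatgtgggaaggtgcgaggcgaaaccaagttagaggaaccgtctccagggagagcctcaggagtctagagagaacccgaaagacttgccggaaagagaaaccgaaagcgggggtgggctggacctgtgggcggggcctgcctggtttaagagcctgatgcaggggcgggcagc
Cish (chr9:107296409-107296658, plus strand): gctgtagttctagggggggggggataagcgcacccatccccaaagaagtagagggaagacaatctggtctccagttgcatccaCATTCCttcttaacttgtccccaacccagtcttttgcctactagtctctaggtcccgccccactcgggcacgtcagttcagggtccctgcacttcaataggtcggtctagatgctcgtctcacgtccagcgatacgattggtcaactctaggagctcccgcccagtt
Junb (chr8:84978749-84978998, minus strand): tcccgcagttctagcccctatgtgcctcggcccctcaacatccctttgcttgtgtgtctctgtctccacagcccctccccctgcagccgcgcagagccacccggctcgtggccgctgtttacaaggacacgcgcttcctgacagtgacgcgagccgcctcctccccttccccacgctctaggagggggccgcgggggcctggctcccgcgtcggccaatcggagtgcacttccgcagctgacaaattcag

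Library totals were 49870948, 58096403 and 55227844 counts without Nanog, and 52468157, 35545030 and 58520948 with it. Nothing in the labels tells whether replicates came from separate cultures, so the p-values measure the spread among these libraries, which may be technical. In bulk cells, a region open in fewer cells and a region less open in each cell cannot be told apart. Regions within 1 kb of the ends of 6 embryonic stem cell marker genes summed to 313 to 353 CPM (counts scaled to library size with TMM factors) without and 343 to 379 CPM with Nanog. Those of marker lists for other cell types, which give accessibility and not expression, had none at 0 in any library. They summed to 107 to 131 against 115 to 123 CPM for primitive endoderm, 54.4 to 58.7 against 58.3 to 68.9 for fibroblasts, 65.1 to 67.7 against 66.8 to 75.3 for endothelium and blood, 87.2 to 92.0 against 89.2 to 99.7 for trophoblast and 144 to 169 against 164 to 182 for neural cells. Their part in the results was not tested.

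NanogKO:Esrrb:Nanog replicate 3 stood apart from the other libraries of its group. Each library was placed on the line between the mean profile of NanogKO:Esrrb, at 0, and that of NanogKO:Esrrb:Nanog, at 1, with the library itself left out of the means. Replicates 1 and 2 of NanogKO:Esrrb:Nanog lay at 0.91 and 1.02, and replicate 3 at 0.56. Those of NanogKO:Esrrb lay at 0.090, 0.18 and 0.039. Replicate 3 was nearer its own group at regions called higher without it, at 0.75, than at regions called lower without it, at 0.48. At 75.9% of those higher and 76.2% of those lower regions it lay beyond all 3 NanogKO:Esrrb libraries in the direction of its group. For comparison, the same shares were 93.3% and 93.5% for replicate 1 and 96.0% and 94.3% for replicate 2, each at the regions called without it. Results are therefore given with and without replicate 3.

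**Figure D1:**
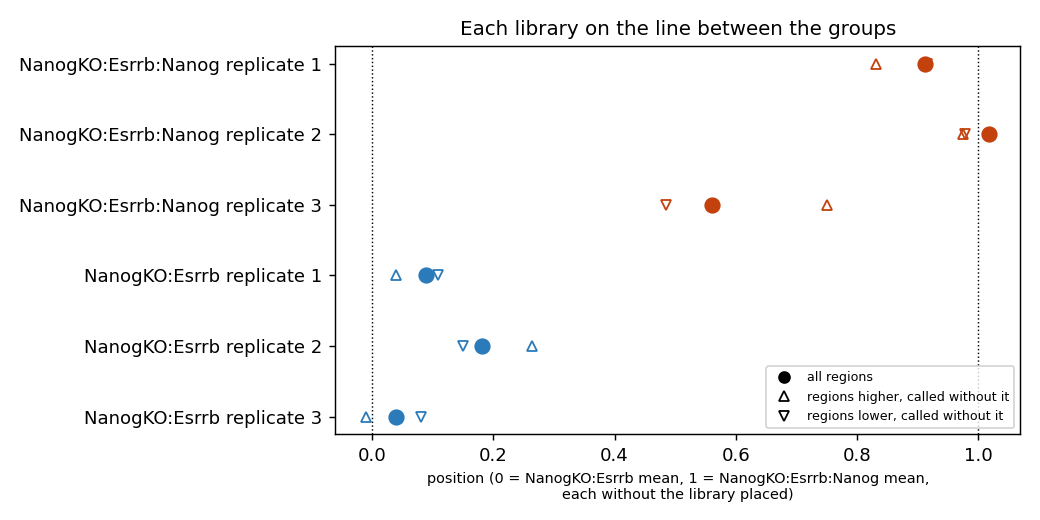
Position of each of the 6 libraries on the line from the NanogKO:Esrrb mean (0) to the NanogKO:Esrrb:Nanog mean (1) of log2 CPM, each library left out of the means; filled points use all regions tested, and open triangles use regions called higher (pointing up) or lower (pointing down) without that library. NanogKO:Esrrb:Nanog replicate 3 sits at 0.56, between replicates 1 and 2 at 0.91 and 1.02 and the NanogKO:Esrrb libraries at 0.039 to 0.18.

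Restored Nanog went with changes at about as many regions that were more open as less open. By edgeR's quasi-likelihood test at a Benjamini-Hochberg adjusted p under 0.05, 19777 of 157439 regions tested were higher (12.6%) and 18935 lower (12%) in NanogKO:Esrrb:Nanog, 24.6% in all. An unadjusted p under 0.05 was reached by 59087. The libraries of the 2 groups did not overlap at 17661 of the higher and 17670 of the lower regions, and did not overlap at 37.7% of all regions tested. Most changes were small: 2981 regions were higher (1.89%) and 5713 lower (3.63%) by more than 2-fold.

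Without replicate 3 the counts were larger, at 24714 higher (15.7%) and 25288 lower (16.1%), 31.8% in all, of which 3422 (2.17%) and 10248 (6.51%) by more than 2-fold. Of the regions called with all libraries, 18014 of those higher (91.1%) and 17242 of those lower (91.1%) were called the same way without it, and 0 the opposite way. The balance of the directions rested on the scaling of the libraries. Scaled by total counts alone, 12765 were higher and 25391 lower, so that 33.5% of calls were higher against 51.1% with TMM, and the median log2 fold change of all regions moved by -0.10. In the comparison of NanogKO:Esrrb with NanogKO, which shares the NanogKO:Esrrb libraries, 31482 regions were higher (20%) and 26741 lower (17%).

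Regions called higher as a class already stood above the median region without Nanog, and those called lower only a little below it. The higher regions had a median of 4.59 CPM without Nanog and 7.47 in NanogKO:Esrrb:Nanog, and the lower regions 2.40 and 1.31. For all regions tested the medians were 2.86 and 2.85 CPM. With regions ranked in 5 equal bins by mean accessibility over the 9 libraries, 4.10% were higher and 15.7% lower in the lowest bin, and 20.7% and 4.15% in the highest. The ranking includes the libraries with Nanog, so a rise or fall itself moves a region between bins, and part of this split is built in. The share of counts in the most open 10% of regions was 49.0%, 46.6% and 44.6% in NanogKO:Esrrb:Nanog replicates 1 to 3 and 46.9%, 44.1% and 45.6% in NanogKO:Esrrb. This relation to strength is what an offset fitted to each library along mean count (loess) removes. With it, 18694 regions were higher and 17471 lower, 9.65% and 7.0% in the lowest bin and 11.8% and 10.7% in the highest, and 4187 were higher and 3295 lower by more than 2-fold.

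**Figure D2:**
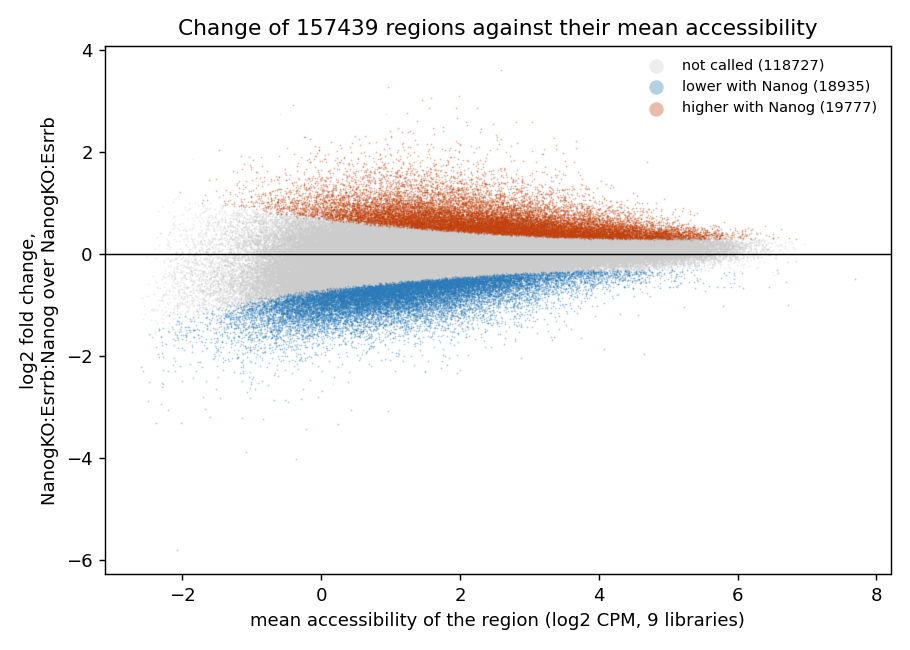
Log2 fold change of NanogKO:Esrrb:Nanog over NanogKO:Esrrb (vertical axis) against mean log2 CPM over the 9 libraries (horizontal axis) for the 157439 regions tested, 1 point each; red points are the 19777 regions called higher, blue the 18935 called lower and grey the rest. Red points lie towards the right, among the more open regions, and blue points towards the left.

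Gene ends and the space between genes differed in the same way. Of regions within 1 kb of an end of a protein-coding gene, 15.5% were higher and 4.61% lower. In genes beyond 1 kb of their ends the shares were 13.4% and 10.8%, and between genes, up to 50 kb away, 10.9% and 15.2%. More than 50 kb from any gene 10.3% were higher and 17.2% lower. Replicate 3 mattered most at gene ends, where 27.5% were higher and 6.43% lower without it. The order of the higher shares turned with loess offsets, to 10.1% at gene ends, 13.5% in genes, 10.6% between genes and 11.03% beyond 50 kb, while gene ends still had the smallest share lower (7.53%). By total counts 8.59% were higher and 7.78% lower at gene ends, and 8.80% and 14.5% in genes.

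The counts were set beside the deposited peak lists as a description and not as separate support, since the counted regions are the merge of those lists. Among 9111 regions with a peak only in the NanogKO:Esrrb:Nanog list, 2141 were higher and 17 lower. Among 13548 with a peak only in the NanogKO:Esrrb list, 23 were higher and 3494 lower. Regions with a peak in the NanogKO and NanogKO:Esrrb lists but not in the third had the highest share lower, 4908 of 11572, with 26 higher. Of 87127 regions in all 3 lists 12944 were higher and 7505 lower. Every peak name in the deposited NanogKO:Esrrb:Nanog list is that of NanogKO:Esrrb replicate 3, and the sources used here do not state which libraries that list was made from.

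At the loci named in the labels, restored Nanog went with a more open Esrrb locus and with little change at Nanog. Of 31 regions in Esrrb (chr12:86361117-86521628) or within 10 kb, 23 were higher and 0 lower, with and without replicate 3, and 20 to 23 were higher over all alternatives. The region of smallest p lay within the gene (chr12:86463234-86463387). It had 1.75, 2.50 and 1.95 CPM without Nanog and 7.26, 7.60 and 6.92 CPM with Nanog, and 1.07, 1.08 and 1.68 CPM in NanogKO. The groups with and without Nanog did not overlap, and its log2 fold change of 1.81 ± 0.19 (SE; adjusted p = 3.4e-07, edgeR) stood beside 0.69 ± 0.21 for NanogKO:Esrrb over NanogKO. Exons and introns were not told apart, nor were reads from added Esrrb sequence.

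Of 5 regions in Nanog (chr6:122707489-122714633) or within 10 kb, 0 were higher and 1 was lower, and 2 were lower without replicate 3. The region lower in both, 865 bp outside the gene (chr6:122715498-122716465), had 11.9, 12.1 and 13.3 CPM without Nanog and 9.0, 6.92 and 9.86 CPM with Nanog. Its log2 fold change was -0.52 ± 0.13 (adjusted p = 0.0051, edgeR) and -0.63 ± 0.14 without replicate 3. In the region 4347 bp outside the gene (chr6:122702151-122703142), values were 69.7, 69.2 and 62.0 CPM without and 83.9, 60.6 and 60.8 CPM with Nanog. Those groups overlapped, and it did not pass the test (0.03 ± 0.12, adjusted p = 0.87). The second region lower without replicate 3 (chr6:122719883-122720451) had -0.45 ± 0.17 there (adjusted p = 0.04) and -0.30 ± 0.16 with all libraries (adjusted p = 0.17). Inside the gene, 1 region (chr6:122713174-122713525) stood at 3.02, 3.84 and 4.02 CPM without and at 4.25, 4.49 and 6.17 CPM with Nanog, and the groups did not overlap. It missed the threshold (0.46 ± 0.20, adjusted p = 0.091), passed it with the replicate number as a block (adjusted p = 0.045) and missed it without replicate 3 (adjusted p = 0.33). The deleted part of Nanog is not given, so these counts do not check the labels.

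Gene lists were described by the regions within 50 kb of their genes, where over all protein-coding genes 13% of regions were higher and 11.1% lower. In the naive pluripotency list 119 of 487 regions were higher and 33 lower, with a median log2 fold change of 0.12 beside 0.01 for all regions within 50 kb of a gene. Without replicate 3 the counts were 122 and 46. Less the regions of Esrrb and Nanog themselves, a choice made after values were seen, 95 of 420 were higher and 30 lower, with a median of 0.11. Closer to the genes the split was wider: within 10 kb 37.9% were higher and 3.45% lower, and 33.2% and 3.57% less the regions of Esrrb and Nanog, beside 13.4% and 9.99% of all regions within 10 kb of a gene. Within 1 kb of the ends of its genes 15 of 37 were higher (40.5%) and 1 lower (2.70%), and 15 of 35 and 0 less Esrrb and Nanog, beside 15.5% and 4.61% of all regions at gene ends. At promoters, in the narrower window defined below, 0 of the list's 10 genes with a counted region were higher or lower. By total counts the list had 92 higher and 59 lower, with a median of 0.01 when that of all regions was -0.11.

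The naive factors did not move as 1 block. Within 10 kb of Tfcp2l1, a transcription factor of the naive state downstream of LIF, 7 of 16 regions were higher and 0 lower. The counts were 5 higher and 1 lower of 8 at Klf5 and 8 and 1 of 20 at Tet2, which encodes an enzyme that oxidises methylated cytosine. At Zfp42, the Rex1 marker gene, they were 4 and 0 of 10, at the germline and pluripotency factor Prdm14 4 and 0 of 11, and at the growth factor gene Fgf4 4 and 0 of 9. At Klf2 0 of 4 and at Nr0b1 0 of 2 were called, and at Dppa3, also known as Stella, 0 were higher and 1 lower of 6. At Pecam1, the gene of the sort marker, 8 were higher and 2 lower of 24. Without replicate 3 Dppa3 had 2 lower, Pecam1 4 and Tet2 2, with 6 higher at Tet2. By total counts Zfp42 had 3 higher and 1 lower and Dppa3 0 and 3. Over the alternatives 4 to 8 were higher at Tfcp2l1, 3 to 5 at Klf5, 4 to 8 at Tet2, 2 to 4 at Prdm14 and 2 to 6 at Fgf4.

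Single regions at these genes show the sizes. A region in Zfp42 (chr8:43299845-43300251) had 10.3, 10.1 and 10.5 CPM without Nanog and 18.7, 20.9 and 18.2 CPM with Nanog. All 3 libraries with Nanog, replicate 3 included, were above all 3 without, and the rise was 1.87-fold (log2 0.90 ± 0.12, adjusted p = 1.1e-05, edgeR). A region in Tfcp2l1 (chr1:118676457-118676749) rose 2.60-fold, from 3.06, 3.30 and 3.39 CPM to 9.19, 8.36 and 7.82 CPM (1.38 ± 0.19, adjusted p = 1.5e-05, edgeR). It had 0.463, 0.569 and 1.16 CPM in NanogKO, so it was least open in NanogKO and most open in NanogKO:Esrrb:Nanog. A region 10185 bp from Dppa3 (chr6:122640456-122641281) fell, from 4.89, 5.51 and 5.22 CPM to 2.36, 2.23 and 3.04 CPM (-1.02 ± 0.17, adjusted p = 0.00015, edgeR). Its groups did not overlap, and replicate 3 was the highest of its group.

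The LIF and STAT3 list had 97 of 404 regions higher and 26 lower, with a median of 0.16, and 122 and 31 without replicate 3. It shares Klf4, Klf5, Tfcp2l1, Gbx2 and Stat3 with the naive list, so regions near these genes count in both and the lists are not separate observations. By gene, 4 of 8 regions within 10 kb of the feedback inhibitor gene Socs3 were higher and 0 lower, 3 and 0 of 8 at Junb, 2 and 1 of 5 at Cish and 4 and 0 of 12 at the adhesion molecule gene Icam1. At Il6st, the shared receptor subunit gp130, 0 of 14 were called with all libraries and 3 were lower without replicate 3, and at Lifr, the LIF receptor subunit, 5 were higher and 3 lower of 29. Whether receptor and target genes differ was not tested. By total counts the list had 70 higher and 40 lower, and Socs3 3 and 1. Over the alternatives 2 to 6 were higher at Socs3, 2 to 4 at Junb, 1 to 3 at Cish and 1 to 7 at Icam1, the 7 without replicate 3.

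The promoters printed above lie in regions that rose by less than 2-fold. At Socs3 the region (chr11:117968916-117970277) had 44.0, 50.2 and 36.0 CPM without Nanog and 67.9, 59.9 and 50.5 CPM with Nanog. Replicate 3 was only just above the highest library without Nanog, and the log2 fold change was 0.45 ± 0.13 (adjusted p = 0.013, edgeR) with it and 0.56 without. At Socs1 (chr16:10784368-10786100) the values were 40.7, 35.2 and 39.3 CPM without and 61.0, 51.6 and 43.5 CPM with Nanog (0.44 ± 0.12, adjusted p = 0.0094). The region at Cish (chr9:107296315-107297335) went from 18.02, 19.0 and 19.4 CPM to 28.3, 28.5 and 24.5 CPM (0.52 ± 0.11, adjusted p = 0.0013). The region at Junb (chr8:84978435-84978983) went from 12.0, 13.8 and 10.6 CPM to 20.3, 19.2 and 15.2 CPM (0.58 ± 0.13, adjusted p = 0.0022). In all 4 the groups did not overlap, and replicate 3 was the lowest of its group.

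Over 15 alternatives the Cish and Junb promoter regions were called in 15, Socs1 in 14 and Socs3 in 13, with the adjusted p of Socs3 up to 0.11. The promoter of Icam1 (chr9:21014696-21016195, 0.33 ± 0.12, adjusted p = 0.04) was called in 8, and missed the threshold by total counts (adjusted p = 0.11) and with loess offsets (0.15). Away from promoters, a region in Lifr (chr15:7092408-7092913) fell from 3.796, 4.29 and 4.28 CPM to 2.11, 2.70 and 2.54 CPM, with no overlap of the groups (-0.75 ± 0.18, adjusted p = 0.0033, edgeR).

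**Figure D3:**
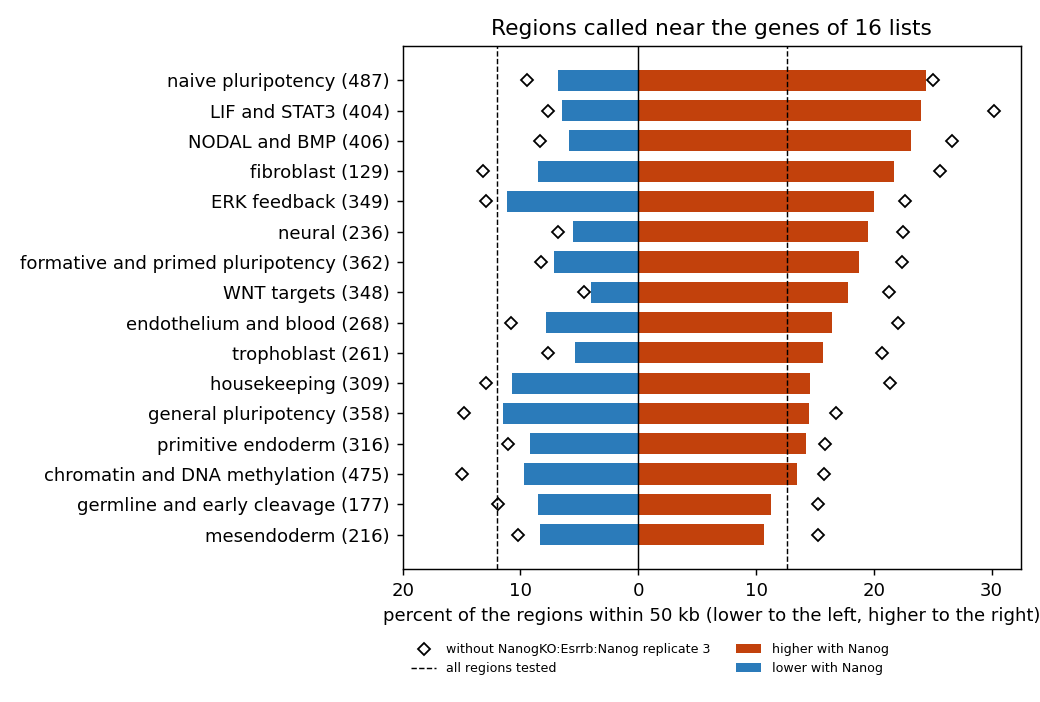
Share of the regions within 50 kb of the genes of each of 16 lists (number of regions in brackets) that were called higher (red, to the right) or lower (blue, to the left) in NanogKO:Esrrb:Nanog than in NanogKO:Esrrb, in percent; dashed lines give the shares of all regions tested, and diamonds the shares without NanogKO:Esrrb:Nanog replicate 3. The naive list reaches 24.4% higher and 6.78% lower, and the mesendoderm list has the smallest red bar. Lists share genes, so a region can count in several bars.

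Genes of NODAL and BMP signalling, which belong to the TGF-beta superfamily, had 94 of 406 regions higher and 24 lower, with a median of 0.14 (108 and 34 without replicate 3, and 61 and 43 by total counts). Of 15 regions within 10 kb of Smad7, an inhibitory SMAD, 11 were higher and 0 lower, and 8 to 11 were higher over all alternatives. The BMP target Id3 had 5 higher of 9, the ligand gene Bmp4 4 of 9 and the other inhibitory SMAD, Smad6, 5 of 21, each with 0 lower, except that Smad6 had 2 lower without replicate 3. Skil, a repressor of SMAD signalling and a target of NODAL, had 1 higher and 5 lower of 15, with 1 to 6 lower over the alternatives. The NODAL inhibitor genes Lefty1 and Lefty2 had 0 of 8 and 0 of 5 called, with 1 higher at Lefty1 without replicate 3 and 1 lower at Lefty2 by total counts and with loess offsets.

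At Smad7 the region of smallest p, 36192 bp from the gene (chr18:75330976-75331173), had 2.76, 3.63 and 2.57 CPM without Nanog and 9.81, 8.86 and 8.96 CPM with Nanog. The groups were far apart, by 3.07-fold (log2 1.62 ± 0.16, adjusted p = 1.8e-07, edgeR), beside 1.28 ± 0.18 for NanogKO:Esrrb over NanogKO. At Skil a region 16471 bp away (chr3:31077711-31078587) fell from 3.00, 3.10 and 4.12 CPM to 1.16, 1.47 and 1.80 CPM (-1.20 ± 0.19, adjusted p = 7.5e-05, edgeR). It had 11.5, 13.7 and 10.6 CPM in NanogKO, so it was most open in that group.

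The Smad7 region lay in a stretch singled out after its values were seen. Among 1979 windows of 1 Mb with at least 20 regions, chr18:75000001-76000000, which also holds Ctif and Dym, had the highest share of regions higher. There 64 of 153 were higher and 1 lower, with a median of 0.39. Without replicate 3 the counts were 67 and 5, and over the alternatives 45 to 70 were higher. Within 10 kb of Ctif, a translation factor gene, 24 of 49 were higher and 1 lower, 18 and 3 by total counts and 22 and 1 with loess offsets. In the plot of this window the higher regions spread over most of its length, on both sides of Smad7.

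**Figure D4:**
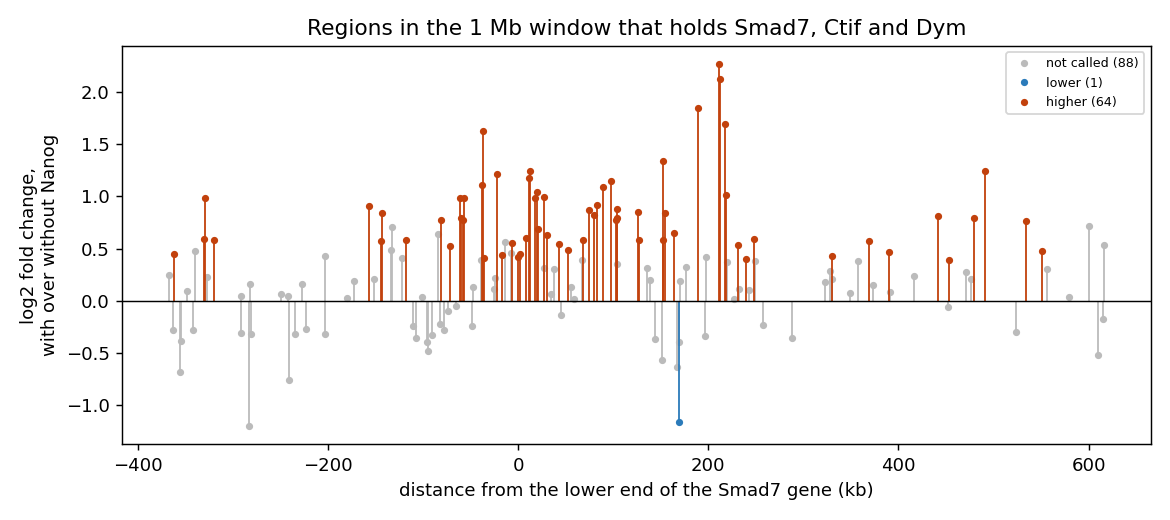
Log2 fold change of NanogKO:Esrrb:Nanog over NanogKO:Esrrb (vertical axis) for the 153 regions of the 1 Mb window that holds Smad7, by distance from the lower end of the gene in kb (horizontal axis); red marks the 64 regions called higher, blue the 1 called lower and grey the rest. The red points stand on both sides of Smad7, and the blue point stands among them.

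WNT pathway targets and regulators had 62 of 348 regions higher and 14 lower (median 0.11; 74 and 16 without replicate 3, and 38 and 29 by total counts). Tcf7l1, a repressor of WNT targets that limits Esrrb and Nanog in stem cells, had 14 of 44 regions higher and 0 lower, and 7 to 18 higher over the alternatives. Axin2, a negative feedback target, had 4 of 15 higher (7 without replicate 3), and the ubiquitin ligase gene Znrf3 0 higher and 3 lower of 17, with 0 to 5 lower over the alternatives. A region 14043 bp from Nkd1, another negative regulator (chr8:88608930-88609443), went from 3.34, 3.77 and 3.50 CPM to 7.55, 6.98 and 7.82 CPM. That was a rise of 1.08 ± 0.15 on the log2 scale (adjusted p = 1.5e-05, edgeR), with 3.46, 3.601 and 3.32 CPM in NanogKO, and 0.03 ± 0.15 for NanogKO:Esrrb over NanogKO.

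The ERK feedback list had 70 of 349 regions higher (20.1%) and 39 lower (11.2%), beside 13% and 11.1% of all regions within 50 kb. Its lower share was thus near that of all such regions. The counts were 79 and 45 without replicate 3, and 43 and 57 by total counts. A region 22316 bp from the proto-oncogene Myc (chr15:62012677-62012975) rose 3.09-fold, from 3.28, 2.83 and 3.31 CPM to 8.63, 8.48 and 11.9 CPM (1.63 ± 0.17, adjusted p = 3.2e-07, edgeR). A region 67399 bp from Dusp4, an ERK-family phosphatase (chr8:34739818-34740211), was among the largest falls by the rule for named regions. It lies beyond 50 kb of the gene and so is not counted in this list. It went from 4.65, 3.30 and 3.58 CPM to 0.788, 0.645 and 1.19 CPM (-2.09 ± 0.22, adjusted p = 3.6e-07, edgeR). A region 16864 bp from Etv5, an ETS factor (chr16:22456434-22457112), fell by 1.08 ± 0.17 on the log2 scale (adjusted p = 6.9e-05, edgeR). Its nearest gene was Dgkg.

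General pluripotency genes differed from the naive list in their counts: 52 of 358 regions were higher and 41 lower, with a median of 0.01 and a mean of -0.01. The counts were 60 and 53 without replicate 3, 36 and 40 with loess offsets and 31 and 51 by total counts, so the direction of this list rests on the scaling. At Pou5f1, which encodes OCT4, 3 of 12 regions were higher and 0 lower, with 1 to 4 higher over the alternatives. At Sox2 0 of 7 were called, but 2 were higher without replicate 3 and 1 was lower with loess offsets. At Fbxo15 1 was higher and 3 lower of 15, and at Dppa2 1 and 3 of 9, with 2 to 5 and 0 to 4 lower over the alternatives. A region 21502 bp from Fbxo15 (chr18:84912638-84913050) went from 8.49, 7.49 and 7.98 CPM to 4.06, 2.52 and 3.01 CPM. It fell by 1.31 ± 0.16 on the log2 scale (adjusted p = 2.4e-06, edgeR).

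Formative and primed genes, which rise when cells leave the naive state, had 68 of 362 regions higher and 26 lower (81 and 30 without replicate 3, and 46 and 40 by total counts). A region 19823 bp from Foxd3, a forkhead factor (chr4:99636073-99636476), had 3.56, 5.27 and 3.55 CPM without and 13.3, 10.5 and 20.1 CPM with Nanog, and 0.585, 1.30 and 1.24 CPM in NanogKO. The spread with Nanog was wide and replicate 3 the highest, at a rise of 3.55-fold (1.83 ± 0.21, adjusted p = 1.6e-06, edgeR) and 1.53 ± 0.20 without replicate 3. At Zic2 5 of 11 regions were higher and 0 lower, with 3 to 7 higher over the alternatives. At Otx2, a factor of the exit from the naive state, 1 of 7 was higher, though by total counts 0 were higher and 1 lower, and at Fgf5, a marker of that exit, 1 was higher and 1 lower of 4. In Dnmt3a, a DNA methyltransferase gene, a region (chr12:3911624-3912370) fell by 0.93 ± 0.18 on the log2 scale (adjusted p = 0.00075, edgeR).

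**Figure D5:**
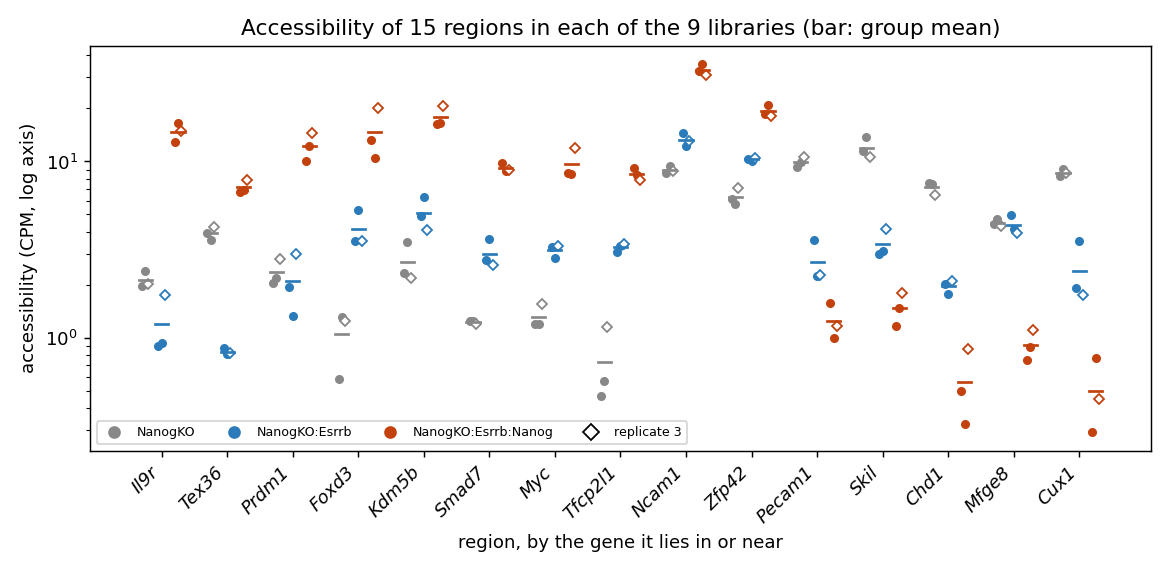
Accessibility in CPM (vertical log axis) of 15 regions, named by the gene they lie in or near, in each library of NanogKO (grey), NanogKO:Esrrb (blue) and NanogKO:Esrrb:Nanog (red); points are libraries, diamonds replicate 3 and bars group means. Red and blue libraries do not overlap in these 15 regions, which were chosen for a small p or for such a gap, so the gap is part of the choice.

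The primitive endoderm, neural, mesendoderm and trophoblast lists had more regions higher than lower, as had all regions within 50 kb of a gene (13% and 11.1%). By total counts primitive endoderm and mesendoderm had more lower. Primitive endoderm, the lineage next to the epiblast, had 45 of 316 regions higher (14.2%) and 29 lower (9.18%), near the shares of all regions within 50 kb. The counts were 50 and 35 without replicate 3, and 29 and 37 by total counts. There, 8 of 13 regions at the laminin gene Lama1 were higher and 0 lower, and 3 and 0 of 9 at Pdgfra, the gene of the sort marker. Without replicate 3, 5 were higher at each, and over the alternatives 5 to 8 at Lama1 and 0 to 6 at Pdgfra. Gata4 had 0 of 10 called and Gata6, the lineage's early GATA factor, 0 higher and 1 lower of 7. A region 11941 bp from Gata6 (chr18:11040019-11040569) went from 8.45, 7.02 and 7.15 CPM to 4.81, 3.52 and 4.72 CPM, with 7.02, 7.66 and 8.03 CPM in NanogKO. It fell by 0.78 ± 0.15 on the log2 scale (adjusted p = 0.00061, edgeR).

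Neural genes had 46 of 236 regions higher (19.5%) and 13 lower (5.51%). Mesendoderm had 23 of 216 (10.6%) and 18 (8.33%), below the shares of all regions within 50 kb in both directions. Trophoblast had 41 of 261 (15.7%) and 14 (5.36%). Without replicate 3 the counts of these lists were, in that order, 53 and 16, 33 and 22, and 54 and 20. For mesendoderm the direction turned to 19 higher and 21 lower with loess offsets and 14 and 24 by total counts. By total counts neural genes had 33 higher and 21 lower and trophoblast 23 and 21, near even. In Ncam1, a neural cell adhesion gene, a region (chr9:49796557-49797450) had 14.6, 12.3 and 13 CPM without and 32.4, 35.6 and 30.9 CPM with Nanog. Its libraries were tight in both groups, and it rose 2.48-fold (1.31 ± 0.12, adjusted p = 2.5e-08, edgeR). In Pax3, a neural crest factor, a region (chr1:78181884-78182221) fell from 3.86, 2.66 and 3.50 CPM to 1.16, 1.12 and 1.02 CPM (-1.60 ± 0.21, adjusted p = 5.6e-06). Of 12 regions at the trophoblast and neural crest factor Tfap2a 7 were higher, with 0 lower.

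Germline and early cleavage genes had 20 of 177 regions higher and 15 lower (27 and 21 without replicate 3), equal at 19 and 19 with loess offsets and 15 and 23 by total counts. At Prdm1, the germ cell factor BLIMP1, regions moved in opposite directions. A region 27604 bp outside it (chr10:44409087-44409570) rose 5.88-fold, from 1.95, 1.32 and 2.99 CPM to 10.0, 12.3 and 14.5 CPM (2.56 ± 0.21, adjusted p = 8.4e-09, edgeR). One inside the gene (chr10:44440542-44441929) fell from 14.5, 10.1 and 13.3 CPM to 8.52, 5.66 and 7.95 CPM (-0.76 ± 0.16, adjusted p = 0.001). Between NanogKO:Esrrb and NanogKO neither passed the test, at -0.17 ± 0.22 (adjusted p = 0.58) and 0.14 ± 0.15 (adjusted p = 0.51).

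Chromatin and DNA methylation genes had 64 of 475 regions higher and 46 lower (75 and 71 without replicate 3), and 40 and 59 by total counts. Tet1, a 5-methylcytosine oxidase that binds NANOG, had 9 of 24 higher and 0 lower. Kdm5b, a histone H3K4 demethylase, had 6 of 23 higher and 0 lower (2 to 7 higher over the alternatives). A region 24696 bp from Kdm5b (chr1:134535133-134535482), whose nearest gene was Mgat4e, rose 3.51-fold. It went from 4.91, 6.26 and 4.09 CPM to 16.4, 16.5 and 20.7 CPM (1.81 ± 0.17, adjusted p = 5.8e-08, edgeR). Among genes of the Polycomb complex PRC2, Suz12 had 0 higher and 2 lower of 13, Mtf2 1 and 2 of 12, Jarid2 7 and 4 of 62, and Ezh2 1 and 0 of 9. Without replicate 3 Mtf2 had 1 higher and 6 lower, Jarid2 8 and 10, so that its direction turned, and Ezh2 2 and 1. A region 20446 bp from Chd1, a chromatin remodeller (chr17:15684227-15684521), went from 2.01, 1.78 and 2.11 CPM to 0.498, 0.323 and 0.865 CPM, with 7.56, 7.46 and 6.47 CPM in NanogKO. It fell by 1.73 ± 0.25 on the log2 scale (adjusted p = 2.1e-05, edgeR).

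Of the lists chosen as references, housekeeping genes lay near the shares of all regions within 50 kb (13% and 11.1%), at 14.6% higher and 10.7% lower. These were 45 and 33 of 309 regions (median 0.04, mean -0.0003; 66 and 40 without replicate 3), but 36 and 37 with loess offsets and 22 and 47 by total counts. A region 12792 bp from Actb, the beta-actin gene (chr5:142920768-142921089), rose from 13.4, 16.4 and 12.5 CPM to 28.9, 38.8 and 23.9 CPM (1.11 ± 0.15, adjusted p = 7.7e-06, edgeR). The fibroblast list had 28 of 129 higher and 11 lower (16 and 18 by total counts), and endothelium and blood 44 of 268 and 21 (33 and 38). Without replicate 3 these were 33 and 17, and 59 and 29. With the replicate number as a block, endothelium and blood had 57 higher and 33 lower. A region 4561 bp from Col1a1, a collagen gene (chr11:94957603-94958591), whose nearest gene was Sgca, rose 2.32-fold (1.22 ± 0.12, adjusted p = 1.2e-07, edgeR). At Col1a2 a region (chr6:4544639-4545019) fell by 0.48 ± 0.17 (adjusted p = 0.04, edgeR). The Col1a2 call was lost in 5 of 15 alternatives, with an adjusted p up to 0.2. All 16 lists had more regions higher than lower, and 7 of 16 by total counts.

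Among regions at or above median abundance that met the rule for named regions, the largest changes lay mostly near genes outside these lists. In Il9r, the interleukin-9 receptor gene, a region (chr11:32196062-32196542) had 0.894, 0.938 and 1.76 CPM without Nanog and 12.9, 16.5 and 14.98 CPM with Nanog. This was the largest rise of any region tested, 12.3-fold (3.62 ± 0.20, adjusted p = 2.6e-11, edgeR), with 1.95, 2.39 and 2.03 CPM in NanogKO. The region 9783 bp from Tex36 (chr7:133576982-133577241) rose 8.60-fold, from 0.874, 0.804 and 0.818 CPM to 6.70, 6.92 and 7.83 CPM (3.10 ± 0.18, adjusted p = 5.2e-11). It had 3.90, 3.58 and 4.26 CPM in NanogKO, and fell by 2.23 ± 0.18 in NanogKO:Esrrb over NanogKO, a comparison that shares the NanogKO:Esrrb libraries. Its level was thus lowest in NanogKO:Esrrb and highest in NanogKO:Esrrb:Nanog.

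Other large rises were in Cdh17, a cadherin gene (chr4:11769539-11769683, 3.07 ± 0.22), 3939 bp from Fam110b (chr4:5805040-5805330, 2.87 ± 0.19), and 326071 bp from Trps1 (chr15:50328323-50328686, 2.88 ± 0.22), whose distance draws no link to that gene. The Trps1 region varied with Nanog, at 7.80, 10.9 and 16.4 CPM, and replicate 3 was the highest. The largest falls by the same rule were near Cux1 and Pgbd5, near Mfge8 and in Zfp638, besides the region near Dusp4. That rule left out regions under median abundance. Over all regions tested the lowest log2 fold change was -5.81, at a region outside the rule. The region 32944 bp from Cux1, a homeobox gene (chr5:136600534-136600832), went from 1.91, 3.53 and 1.74 CPM to 0.290, 0.763 and 0.450 CPM (-2.32 ± 0.29, adjusted p = 3.3e-06, edgeR), with 8.24, 9.06 and 8.62 CPM in NanogKO. The region 19514 bp from Mfge8, a secreted phosphatidylserine-binding protein gene (chr7:79168574-79168934), went from 4.95, 4.14 and 3.95 CPM to 0.746, 0.880 and 1.11 CPM (-2.24 ± 0.20, adjusted p = 3.1e-08). In NanogKO it had 4.41, 4.68 and 4.30 CPM, with -0.04 ± 0.17 for NanogKO:Esrrb over NanogKO. The Cux1 region was therefore highest in NanogKO, while the Mfge8 region was lower with Nanog than in both other groups.

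Promoters as a class were more often higher than lower, in a manner that again moved with the scaling. Of 32815 promoter windows in the RefSeq table, 250 bases before to 50 after a start, 17132 overlapped a counted region, which was higher for 2967 (17.3%) and lower for 681 (3.98%). Without replicate 3 the counts were 5649 and 777, with loess offsets 1716 and 1468 and by total counts 1623 and 1244. The median GC content was 63.0% in the higher, 51.0% in the lower and 60.7% in the promoters whose region was not called. Of the list genes, 129 had a promoter in a counted region, of which 27 were higher (20.9%) and 1 lower, near the 17.8% higher of all genes with such a promoter. The lower one was at Mtf2 (chr5:108076185-108078131), at an annotated start inside the gene's span (chr5:108065660-108109219). It had 51.3, 56.3 and 44.8 CPM without and 32.7, 29.0 and 44.5 CPM with Nanog (-0.52 ± 0.13, adjusted p = 0.0062, edgeR). There replicate 3 lay next to the NanogKO:Esrrb libraries.

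Short motifs were counted in the same windows, on both strands. The octamer ATTTGCAT was in 1.45% of higher, 3.96% of lower and 1.34% of not called promoters, against 1.74% of all windows. AAGGTCA, the core bound by ESRRB, was in 3.13%, 5.58% and 3.23%, against 4.72% of all, and the GATA motif AGATAA in 4.45%, 12.8% and 6.09%, against 11.2%. The SOX motif AACAATG was in 2.09%, 3.96% and 1.79%, against 3.78%, and TGANTCA, where AP-1 binds, in 5.36%, 7.93% and 4.80%, against 7.81%. The TEAD motif was in 12.5%, 15.9% and 12.3%, against 14.7%. The KLF motif GGGTGTG ran the other way, at 10.95%, 6.61% and 8.50%, against 7.95%. The TTCNNNGAA motif, added after the data were seen, was in 6.13%, 7.05% and 6.64%, against 8.29%, so it was no more frequent in the higher promoters than in the rest. The classes differ in GC content, and a match is a string of letters and not a bound site. Regions away from promoters were not searched, since no genome sequence was used here.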

How the data were processed

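ATAC-seq reads had been counted by the authors in 157497 regions, and the deposited table held raw counts, whole numbers with no normalization, for 9 libraries, 3 per group. The peak lists hold 1 interval per line with a score that the authors deposited (13 or higher), which entered no test. The submitters' processing notes give the build as mm10. Among tools they list MACS2 2.2.0, bedtools 2.26.0, Bowtie2 and cutadapt, and SAMtools 1.4.1 besides bcl2fastq 2.19.1 and deepTools 4.4.0, with no roles. The counting tool, duplicate removal and any shift of reads for the transposase are not given in the sources used here. Merging the 3 lists gave the counted regions exactly.

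The 9 libraries were fitted together in 1 model of group means with edgeR 4.0.16 (R 4.3.3), with TMM factors and filterByExpr, which 157439 regions passed. The quasi-likelihood F test had 6 residual degrees of freedom, and p-values were adjusted over all regions tested (Benjamini-Hochberg, 0.05). CPM values use TMM factors, and log2 CPM a prior count of 2. Errors of log2 fold changes are standard errors worked back from this test, as the absolute log2 fold change over the square root of F. They thus rest on the spread shared by the 9 libraries in the fit. The n is 3 libraries per group, and every adjusted p comes from this test unless DESeq2 is named.

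Distances run to the spans of protein-coding genes in RefSeq GRCm38.p6. The 16 lists held 239 entries and 218 distinct genes, all matched. The members of the comparison, the lists and the tests were chosen with earlier results of these data known. Named regions followed a rule: the smallest p at Nanog and Esrrb, the 5 largest rises and falls at or above median abundance whose libraries do not overlap and that were called without replicate 3 too, and in each list the rise and the fall of smallest p. Of these, 1 is not reported here. Counts per gene within 10 kb, the promoters and the 1 Mb windows were chosen after values were seen.

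Alternatives were the 6 libraries alone, DESeq2 size factors, total counts, loess offsets (span 0.3), DESeq2 1.42.0, no filter, at least 50 counts in 3 libraries, a replicate block, each library left out, and other distances to genes. Same-numbered libraries of the groups deviated together (correlations 0.15, 0.10 and 0.12, against -0.098 to -0.032 for different numbers). The numbers may therefore pair the libraries, by these values and not by the labels. The main fit holds no block for the number and ignores any such pairing, and the replicate block was fitted as an alternative only. No 2 libraries of a group were copies (chi-square per region 3.55 to 9.50). On simulated data of 157367 regions, 22% of 100 regions changed 1.5-fold and 78% of 100 changed 2-fold were recovered, with 3 false calls. Far fewer regions were changed there than were called in the data, so these shares describe the simulation only.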

Additional observations from a re-analysis of the deposited data

How the results depend on the processing

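Over the 15 alternative fits, the 42 regions named from the lists and as largest changes gave 630 values, of which 625 kept their direction and call and 0 reversed. The other 5 were all of the region near Col1a2, which lost its call. The regions were picked for small p or large change, so this describes them and shows no stability in general. Of 28 promoters of list genes that were called, 10 were called in every alternative, and Lamb1 in 6 of 15. By total counts alone 12765 regions were higher, and 7 of 16 lists had more regions higher than lower. With that scaling the naive list had 18.9% higher and 12.1% lower, the LIF and STAT3 list 17.3% and 9.90%, and the NODAL and BMP list 15.02% and 10.6%. With loess offsets 3295 regions were lower by more than 2-fold. The replicate block gave 23512 regions higher and 22243 lower. Among the lists' counts it moved 1 by over 1.5 times, the lower regions of endothelium and blood (21 to 33). It changed no call of the 42 named regions and gave 28.7% of the LIF list higher. With the block and without NanogKO:Esrrb:Nanog replicate 3, 9710 regions were lower by more than 2-fold, the LIF list had 32.9% higher, and 10.1% of the naive and 9.11% of the NODAL list were lower. DESeq2 called 21277 higher and 17481 lower.

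Leaving out 1 library gave 12526 to 24714 regions higher, 11821 to 25288 lower, 2744 to 4017 higher and 4561 to 10248 lower by more than 2-fold, and 14 to 16 lists with more higher than lower. The lowest counts came without NanogKO:Esrrb replicate 3 (12526 higher, 12066 lower), and without NanogKO:Esrrb:Nanog replicates 1 (11821 lower) and 2 (13175 higher, 12256 lower). The highest came without NanogKO:Esrrb:Nanog replicate 3, except the 4017 higher by more than 2-fold, which came without NanogKO:Esrrb replicate 2. The naive list ranged from 17.0% to 25.1% higher and 4.11% to 9.45% lower, the LIF list from 15.6% to 30.2% and 3.47% to 7.67%, and the NODAL list from 14.3% to 26.6% and 3.69% to 8.37%. Within 10 kb the naive list had 37.9% higher and 3.45% lower and the NODAL list 3.21% lower. At gene ends (1 kb) the naive, LIF and NODAL lists had 40.5%, 45.7% and 28.6% higher and 2.70%, 2.86% and 2.86% lower. The cause of these differences was not tested, beyond the fewer libraries or regions in the fits. On simulated data with 100 regions changed at each size, 22% were recovered at 1.5-fold and 78% at 2-fold. The simulation changed a far smaller share of regions than the 24.6% called here, and set no library between the groups. Its shares are therefore not the recovery of the test on these data. A region not called is not shown to be unchanged.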

Other observations

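Histone genes were chosen once their values had been seen. Within 1 kb of the ends of 53 histone genes on chromosome 13, where the main clusters of replication-dependent histone genes lie, 27 of 44 regions were lower with restored Nanog and 1 was higher, with a median log2 fold change of -0.39. Over all regions tested 12% were lower, and 4.61% of those within 1 kb of an end of a protein-coding gene. Summed over these regions, accessibility was 1774, 1455 and 1654 CPM without Nanog and 1369, 1028 and 1320 CPM with it, so the groups did not overlap, and replicate 3 lay with its group. In NanogKO it was 1889, 1601 and 1489 CPM. Without replicate 3, 28 were lower and 1 higher, and with loess offsets 34 and 0. The count rested on single libraries, at 12 lower without NanogKO:Esrrb:Nanog replicate 2 and 13 without NanogKO:Esrrb replicate 1. On chromosome 3, 3 of 10 such regions were lower and 0 higher, and 4 and 2 without replicate 3. Of 4 such regions on chromosome 15, 0 were lower and 1 higher, and of 4 on chromosome 6, 0 were lower and 0 higher. These genes are near-identical copies whose reads the authors' mapping could split, so single regions are uncertain.

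The windows of 1 Mb with the highest shares of regions lower were also chosen after their values were seen. They were chr17:93000001-94000000, which holds the neuropeptide gene Adcyap1 (15 of 31 lower, 1 higher), chr1:117000001-118000000 with Cntnap5a (12 of 25, 0 higher) and chr8:20000001-21000000, which holds defensin genes (20 of 44, 0 higher). Defensin genes too are near-identical copies, so their regions are uncertain. Of 35 regions whose nearest gene was Sfi1, 23 were lower and 0 higher. By chromosome, the median log2 fold change ran from -0.07 on chromosome 13 to 0.05 on chromosome 19 among the autosomes.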
